A study of Mus musculus with 8 samples.

Results

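Genes of the cytosolic HSP90 and HSC70 chaperone machinery were followed through the cell types of the mouse lung: Hspa8, Hsp90ab1, Hsp90aa1, Ahsa1, Ahsa2, Stip1, Fkbp4, Cacybp, St13 and Chordc1. They are 10 of the 33027 genes in the expression matrix. The genes were chosen by a readout of these same mice, since each had been seen to be lower after cigarette smoke in many cell types. The smoke against room air values of these 10 genes are therefore given below as a description, with no test, and what is tested are other genes of the same pathway. The lists of those other genes were also chosen with earlier results of these data known.

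Single-cell RNA was sequenced from the lungs of 8 C57BL/6 mice, 4 that breathed cigarette smoke (CS) in a smoking machine for months and 4 littermates in room air (RA). All 8 carried Sftpc-CreERT2 and mTmG and all had received tamoxifen as young adults, so both groups share these alleles and this drug. The Sftpc promoter drives the recombinase in alveolar type 2 cells, where tamoxifen switches the reporter from red to green. The right lungs were digested with warm enzymes 1 day after the last exposure, and immune and non-immune cells were recombined with non-immune cells in large excess, so shares of immune cells were set by the protocol. CS mice 1 to 4 and RA mice 1 to 4 are named by group and replicate.

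HSC70 (Hspa8) is the constitutive cytosolic HSP70. It binds newly made and unfolded proteins, helped by J-domain partners that bring substrates and by nucleotide exchange factors that release them. The adaptor STIP1, also called HOP, passes a client from HSC70 to the HSP90 dimer, made of HSP90 alpha (Hsp90aa1, stress responsive) or HSP90 beta (Hsp90ab1, constitutive). HSP90 then closes around clients such as steroid receptors and kinases in an ATP cycle that AHSA1 speeds up. In ciliated airway cells the same machinery, with dedicated assembly factors, helps to fold the dynein arms of motile cilia.

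6 of the 10 genes had a window in the RefSeq promoter table (GRCm38.p6): Cacybp, Fkbp4, Chordc1, Ahsa2, Ahsa1 and Stip1. Windows of 250 bases before the RefSeq start site were searched on both strands for the heat shock element, the site of the heat shock factors, written as 3 alternating units (GAANNTTCNNGAA). None of the 6 windows held it, as against 0.514% of the 27025 genes with a window. At so small a share 6 windows are too few to read anything from this. Only Fkbp4, the gene of the HSP90 immunophilin FKBP52, held 2 adjoining units (GAANNTTC or TTCNNGAA, found in 14.5% of all genes; the 3-unit motif contains both of them). With 1 letter allowed to differ from the 3-unit motif, only Fkbp4 of the 6 held a match, which begins 156 bases before the start site. Of all genes with a window, 6.86% held such a match. The window of Fkbp4 is shown because it is the one with a match. Its 2 adjoining units are in capitals and begin 151 bases before the start site. The window is written along the strand of the gene.
Fkbp4, chr6:128438657-128438906, minus strand: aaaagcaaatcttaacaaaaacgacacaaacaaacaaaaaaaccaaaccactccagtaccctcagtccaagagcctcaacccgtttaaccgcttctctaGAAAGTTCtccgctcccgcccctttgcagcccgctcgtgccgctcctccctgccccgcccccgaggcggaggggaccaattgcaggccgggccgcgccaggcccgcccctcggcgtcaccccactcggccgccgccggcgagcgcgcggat
A match is a run of letters and not a measured binding site. GENCODE starts some transcripts further upstream than RefSeq, so that nearly all of the Ahsa1 window, part of the Chordc1 window and the last bases of the Fkbp4 window lie inside the GENCODE gene.

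The 10 genes are protein coding and lie apart in the genome. In the GENCODE annotation of GRCm38, Hspa8 is at chr9:40800984-40810087 on the plus strand, Hsp90aa1 at chr12:110690605-110702728 on the minus strand and Hsp90ab1 at chr17:45567775-45573271 on the minus strand. The other 7 are on chromosomes 1 (Cacybp), 6 (Fkbp4), 9 (Chordc1), 11 (Ahsa2), 12 (Ahsa1), 15 (St13) and 19 (Stip1).

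The matrix held 41106 cells, of which 40074 were used after the cells annotated as multiplets or cell cycle were left out. The mice gave 3317 to 6153 cells each in CS and 2553 to 6371 in RA, with a median per mouse of 4557 to 6316 transcripts per cell in CS and 4254 to 6473 in RA. Of the 32 cell types in the deposited annotation, 22 had at least 20 cells in at least 3 mice of each group and 17 of these had all 8 mice. Type names follow that annotation: AT1 and AT2 are alveolar type 1 and type 2 cells, EC capillary A the aerocytes that carried Car4, Ednrb and Apln, EC capillary B the general capillary cells that carried Gpihbp1 and Plvap, AM alveolar macrophages, NG neutrophil granulocytes, and cMono and ncMono classical and non-classical monocytes. Foxj1, Dynlrb2 and Tmem212, which define ciliated cells, were highest in the cells so labelled. Of 3 mast cell markers, Cpa3 was highest in the cells labelled Mast, while Kit and Mcpt4 were not, so that name is used here as a label. Of the club cell markers, Scgb1a1 was highest in club cells, while Scgb3a2 was highest in goblet and Cyp2f2 in basal cells. Of the ncMono markers, Treml4 was highest in ncMono, while Ace and Nr4a1 were highest in other types. In the 4 CS libraries Xist and Ddx3y went against the sex in the labels, whereas they fitted it in the 4 RA libraries; sex was used in no comparison. 190 cell barcodes occurred in more than 1 library (380 cells).

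In room air, ciliated cells stood far above every other type in the machinery as a whole. The order of types given here is that of the 22 fitted types. A level is the mean over a mouse's cells of transcripts per 10,000 transcripts of the cell, which needs no correction for gene length because each molecule is tagged once. The 10 genes together made up 139 ± 29.2 transcripts per 10,000 in RA ciliated cells (mean ± SD, n = 4 mice). AT1 cells came next at 46.6 ± 8.64 (n = 4), and the ranges did not overlap. Below ciliated cells, the types followed one another closely: 19 of the 21 pairs of neighbours in the order overlapped in their ranges over mice. The other gap lay between B cells, at 30.7 ± 7.05 (n = 4), and neutrophils, which were lowest at 8.98 ± 1.43 (n = 4). Hspa8, Hsp90ab1 and Hsp90aa1 carried nearly all of the sum, from 79.9% in NK and cytotoxic T cells to 95.3% in the cells labelled Mast.

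**Figure D1:**
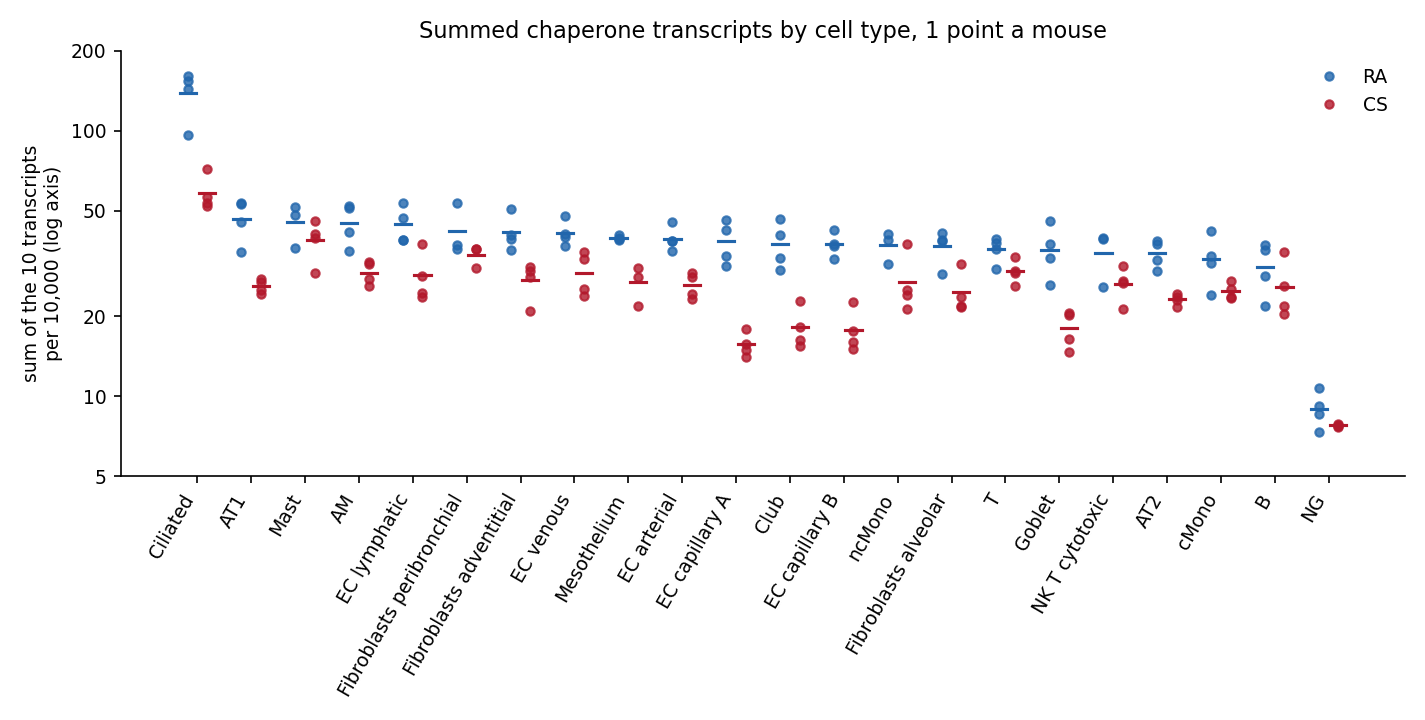
Sum of the 10 chaperone transcripts per 10,000 (vertical axis, log scale) in 22 cell types, ordered by the RA mean; each point is a mouse (blue RA, red CS) and each bar a group mean. Ciliated cells are highest in both groups, neutrophils lowest, and the CS mean is below the RA mean in all 22 types.

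Single genes differed in where they peaked. Of the 10 genes, 9 had their highest RA level in ciliated cells, and for 8 of these 9 the range did not reach that of the next type; for St13 it did. Hsp90aa1 was uneven, at 51.6 ± 11.4 per 10,000 in ciliated cells, 10.8 ± 2.81 in AT1 cells and 1.36 ± 0.138 in neutrophils (n = 4 each). Hsp90ab1 reached 46.8 ± 9.76 in ciliated cells, 21.5 ± 4.03 in alveolar macrophages and 2.15 ± 0.305 in neutrophils. Hspa8 was the exception, with an even spread: 21.9 ± 8.06 in the cells labelled Mast (n = 3), 21.4 ± 6.39 in ciliated cells and 4.06 ± 0.945 in neutrophils, with every pair of neighbours overlapping. Among the co-chaperones, Fkbp4 was highest in ciliated cells (3.91 ± 0.534) and then AT2 cells (2.60 ± 0.252), with gaps between ciliated and AT2 cells and between AT2 cells and the next type, club cells (1.76 ± 0.198). Stip1 was at 4.06 ± 0.950 in ciliated cells and 1.11 ± 0.462 in the next type, B cells. For Ahsa1 the next type was NK and cytotoxic T cells (1.04 ± 0.101, n = 3) after ciliated cells (3.47 ± 0.557). For Cacybp it was the same pair (2.41 ± 0.378 and 1.40 ± 0.555). Ahsa2 and Chordc1 were the rarest, at 0.957 ± 0.178 and 1.11 ± 0.0973 in ciliated cells. The lowest level of each of the 10 genes was in neutrophils or in the cells labelled Mast.

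Both HSP90 genes were used in different proportions by different cell types. Of the HSP90 transcripts in RA ciliated cells, 52.4% ± 1.07 (SD, n = 4) came from Hsp90aa1. The share was 38.1% ± 3.80 in club cells and 25.6% ± 3.77 in EC capillary B, and lowest in EC capillary A at 15.8% ± 2.04 (n = 4 each). Ciliated cells did not overlap the type next to them in this order, and all other neighbours overlapped. The mean share was higher in CS than in RA in 18 of 22 types, without overlap in 4 of them: AT1 cells, T cells, arterial endothelium and the cells labelled Mast (3 RA mice). Both genes were picked on this contrast, and no share over all genes was worked out for such a ratio. The CS and RA shares are therefore a description, and nothing is read from these counts. In CS mice it was 44.8% in AT1 cells against 35.9% in RA, and 42.2% in AT2 cells against 35.1% in RA. Ranges over mice met in AT2 cells. In AT1 cells CS ran from 41.8 to 49.4% and RA from 33.1 to 39.2%, and in T cells CS ran from 29.4 to 31.4% and RA from 24.8 to 27.4%.

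Levels of the 10 genes varied together over the 22 types of RA mice. Pearson's r of log2 levels had a median of 0.69 over the 45 pairs of genes. It ran from 0.16 (Hspa8 with Chordc1) to 0.95 (Ahsa1 with Ahsa2); these points share 4 libraries and ciliated cells lie at 1 end. Of the 1704 genes measured in all 22 types, the 5 outside the list whose level profile was nearest to the mean profile of the 10 were Ptges3 (r = 0.93), Pcbd2 (0.85), Sf3b2 (0.83), Bcap31 (0.83) and Pebp1 (0.82). Ptges3 encodes p23, the co-chaperone that binds the closed HSP90 dimer.

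After smoke the machinery was lower in nearly every type. The mean sum of the 10 genes was lower in CS than in RA mice in all 22 types, and in 13 of them every CS mouse was below every RA mouse. Of the 220 combinations of gene and type, 211 passed the filter (detection in 10% or more of a type's cells in CS or in RA). The mean of log2(value + 1) was lower in CS in 201 of these and higher in 10, against 45.8% lower over all genes. Of the 211, 11 passed the filter through the RA group alone and so were bound to be detected more often in RA. In 95 combinations every CS mouse was below every RA mouse, and in none was every CS mouse above. Over all genes and types, 4.67% of combinations were lower without overlap. The limma fit used for other genes called 47 of the 211 lower, beside 0.518% of all combinations; because the genes were picked on this contrast nothing is read from that count. The labels carry a code for each library that was read as its sequencing lane, and each code was shared by 1 CS and 1 RA mouse. In 112 of the 164 combinations with all 8 mice the CS mouse was lower in all 4 lanes. The reverse held in 1. Over all genes, 10.5% of such combinations were lower and 14% higher in all 4.

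**Figure D2:**
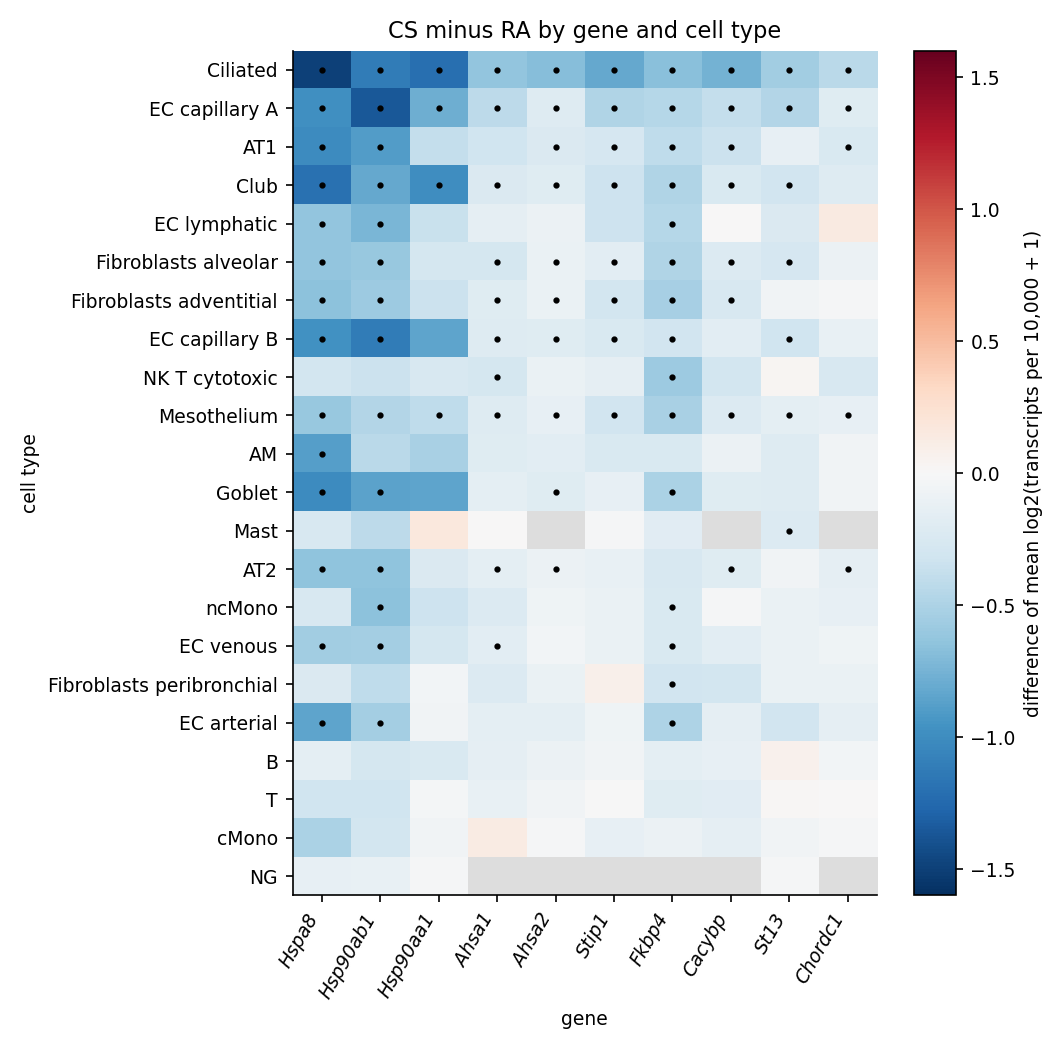
Difference between CS and RA mice in mean log2(transcripts per 10,000 + 1) for 10 genes (columns) in 22 cell types (rows, ordered by their median difference); blue is lower in CS, grey did not pass the filter, and a dot marks groups that do not overlap. Ciliated cells, EC capillary A and mesothelium carry a dot for all 10 genes and the darkest blue is Hspa8 in ciliated cells.

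Of the 10 genes, Hspa8 and Hsp90ab1 had the largest differences on this scale, which understates the change of rare genes. The median over types of the log2(value + 1) difference was -0.63 for Hspa8, -0.56 for Hsp90ab1, -0.41 for Fkbp4 and -0.31 for Hsp90aa1. For the other 6 genes it lay between -0.20 (Ahsa1) and -0.10 (Ahsa2). Hspa8 and Hsp90ab1 were lower in CS in 22 of 22 types, Fkbp4 in 21 of 21 and Ahsa2 in 20 of 20. The 10 combinations that were higher in CS were spread over 6 genes and 7 types, and the highest was Hsp90aa1 in the cells labelled Mast (0.17, SE 0.15).

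Hspa8, the HSC70 gene, was lowest relative to room air in ciliated cells. Its level was 5.92, 8.58, 6.53 and 5.94 per 10,000 in CS mice 1 to 4 and 19.8, 13.3, 24.4 and 28.2 in RA mice 1 to 4. Every CS mouse was under every RA mouse, and the CS mean was 68.5% below the RA mean (-1.50 on the log2 scale, SE 0.20). AT1 cells gave 5.10, 4.58, 5.86 and 4.12 in CS against 11.6, 7.42, 11.3 and 13.9 in RA, which was 55.6% lower. Alveolar macrophages gave 6.84, 7.26, 5.68 and 6.57 against 8.96, 11.9, 15.6 and 16.4, a CS mean 50.3% lower. The groups did not overlap in either type, and Hspa8 was the only one of the 10 genes whose groups were apart in alveolar macrophages. Neutrophils had the smallest difference among types with all 8 mice, at 3.79, 3.59, 3.46 and 3.50 in CS and 2.96, 3.89, 4.14 and 5.26 in RA, and there the groups overlapped.

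Hsp90ab1, the constitutive HSP90, showed its largest difference in EC capillary A, the aerocytes. Levels were 7.07, 6.97, 8.27 and 6.31 per 10,000 in CS mice 1 to 4 and 26.1, 16.3, 15.7 and 22.9 in RA mice 1 to 4. All CS mice lay well below all RA mice, and the CS mean was 64.6% lower (-1.36, SE 0.16). EC capillary B gave 6.53, 9.94, 7.52 and 6.35 in CS and 20.1, 15.9, 16.8 and 17 in RA. Ciliated cells gave 17.8, 26.0, 20.8 and 19.0 in CS and 53.5, 32.4, 48.8 and 52.3 in RA, with RA mouse 2 well under the other 3 but still above CS mouse 2. In these 3 types no CS mouse reached an RA mouse. Hsp90ab1 made up 57.8% of the difference in the sum in EC capillary A and 32.2% in ciliated cells. In neutrophils it was 1.91 ± 0.345 in CS and 2.15 ± 0.305 in RA (n = 4 each), with overlap.

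Hsp90aa1, the stress-responsive HSP90, was apart between the groups in ciliated cells, club cells, EC capillary A and mesothelium. In ciliated cells it was 20.1, 26.2, 19.6 and 19.8 per 10,000 in CS mice 1 to 4 and 59.4, 35.8, 50.7 and 60.4 in RA mice 1 to 4. No CS mouse reached the lowest RA mouse, RA mouse 2, and the CS mean was 58.5% lower (-1.21, SE 0.16). In club cells, the secretory cells of the airway, it was 3.73, 5.79, 3.97 and 3.36 in CS and 8.73, 6.26, 9.96 and 13.3 in RA, again apart. EC capillary B gave 2.48, 4.36, 2.41 and 2.54 in CS and 8.49, 4.26, 6.30 and 5.35 in RA, where CS mouse 2 lay above RA mouse 2. In AT2 cells the groups overlapped, at 5.46 ± 1.07 in CS and 6.58 ± 0.950 in RA (n = 4 each), while Hspa8 and Hsp90ab1 did not overlap there. Of the 22 types, 4 had CS and RA apart for Hsp90aa1, against 14 for Hspa8 and 14 for Hsp90ab1. Beside these descriptive counts, 4.67% of all combinations of gene and type were lower in CS without overlap. Neutrophils had the smallest difference among types with all 8 mice (-0.013, SE 0.13).

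Fkbp4, whose immunophilin product escorts steroid receptors on HSP90, had the most types without overlap of any of the 10 genes (15 of 21). Over all genes and types, 4.67% of combinations were lower in CS without overlap. The gene was picked on this contrast, so the count is a description. In ciliated cells its levels were 2.01, 2.29, 2.11 and 1.85 per 10,000 in CS mice 1 to 4 and 3.66, 3.29, 4.2 and 4.48 in RA mice 1 to 4, a CS mean 47.1% lower. EC capillary A gave 0.332, 0.302, 0.426 and 0.303 in CS and 1.02, 0.817, 0.560 and 0.973 in RA, 59.5% lower. The 2 groups were apart in both types, and also in EC capillary B (0.403 to 0.486 in CS, 0.750 to 0.866 in RA) and in AT1 cells (0.604 to 0.680 in CS, 1.06 to 1.35 in RA). Classical monocytes had the smallest difference among types with all 8 mice (-0.094, SE 0.081). Of the 6 genes with a start site window it is the one with 2 heat shock element units, a match that 14.5% of all genes hold. A link of this match to the levels was not tested.

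The ATPase activators of HSP90 were low in abundance but clearly separated in ciliated cells. Ahsa1, the main activator, was 1.80, 2.15, 1.85 and 1.69 in CS mice 1 to 4 and 3.86, 2.66, 3.80 and 3.58 in RA mice 1 to 4, 46.1% lower. Its relative Ahsa2 was 0.169, 0.254, 0.221 and 0.224 in CS and 1.15, 0.721, 1.0 and 0.955 in RA. The CS mean of Ahsa2 was 77.3% lower, the largest share lost by any of the 10 genes in ciliated cells, although on the log2(value + 1) scale it was -0.68 (SE 0.058). In EC capillary A, Ahsa2 was 0.178, 0.156, 0.196 and 0.165 in CS and 0.378, 0.333, 0.348 and 0.350 in RA, with mice within a group close together. Classical monocytes were at the other end for both genes, at 0.13 (SE 0.10) for Ahsa1 and -0.018 (SE 0.077) for Ahsa2.

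Stip1 and St13 encode the adaptors HOP and HIP, which dock on HSC70. Stip1 in ciliated cells was 1.42, 2.18, 1.76 and 1.96 in CS mice 1 to 4 and 4.57, 2.64, 4.49 and 4.54 in RA mice 1 to 4. RA mouse 2 stood well under the other 3 RA mice and above all CS mice. The CS mean was 55.0% lower (-0.82, SE 0.14). St13 in ciliated cells was 1.46, 1.87, 1.81 and 1.76 in CS and 3.21, 2.36, 3.18 and 3.27 in RA, 42.6% lower, with the same RA mouse lowest. St13 was higher in CS in 3 types, with 0.071 (SE 0.088) in B cells, and Stip1 in T cells was at -0.0074 (SE 0.081).

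Cacybp encodes a partner of Siah ubiquitin ligases with an HSP90 co-chaperone-like domain, and Chordc1 encodes morgana, an HSP90 binding protein with CHORD zinc domains. Cacybp in ciliated cells was 0.803, 1.22, 1.12 and 0.915 in CS mice 1 to 4 and 2.9, 1.98, 2.40 and 2.34 in RA mice 1 to 4, 57.8% lower. Chordc1 there was 0.411, 0.797, 0.541 and 0.499 in CS and 1.09, 0.977, 1.18 and 1.18 in RA, 49.2% lower. Neither gene overlapped between groups in ciliated cells. In lymphatic endothelium both went to the other end of their range, at 0.0051 (SE 0.12) for Cacybp and 0.15 (SE 0.11) for Chordc1.

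**Figure D3:**
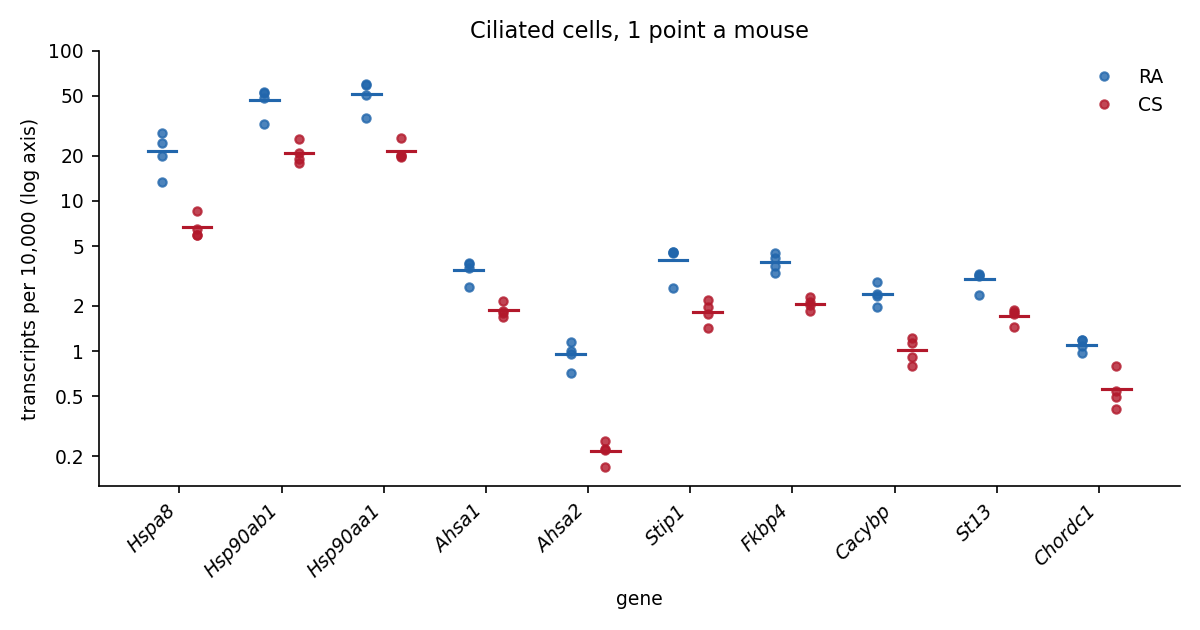
Transcripts per 10,000 (vertical axis, log scale) of the 10 genes in ciliated cells; each point is a mouse (blue RA, red CS) and each bar a group mean. For every gene the 4 CS mice lie under the 4 RA mice, and RA mouse 2 is the lowest RA point.

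Among the 22 fitted types, the sum was lowest relative to room air in both capillary types and in ciliated, club and goblet cells of the airway, with AT1 cells next. In ciliated cells (11077 genes tested; 1.91% of them called lower) the sum of the 10 genes was 58.3 ± 8.97 per 10,000 in CS and 139 ± 29.2 in RA, 57.9% lower. In EC capillary A (0.989% called lower) it was 15.7 ± 1.67 against 38.3 ± 7.20, 59.1% lower. EC capillary B (3.97% called lower) had 17.8 ± 3.43 against 37.4 ± 3.89, 52.3% lower. AT1 cells (0.992% called lower) had 26.0 ± 1.53 against 46.6 ± 8.64, 44.2% lower (n = 4 in each group throughout). Club cells and goblet cells, the secretory cells of the airway, lay between these, at 51.5% and 49.4% lower. The fit called 10, 9, 8 and 8 of the 10 genes lower in ciliated cells, EC capillary A, EC capillary B and AT1 cells in that order, and from that nothing is read. In ciliated cells and EC capillary A all 10 genes were without overlap, as they were in mesothelium, where CS mouse 1 had too few cells to enter. The share of all genes lower without overlap is not given here for single types. Over all types it was 4.67%. The 10 genes were picked on this contrast, so nothing is read from these counts either.

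AT2 cells, the target of the reporter, lay between. Their sum was 21.7, 23.7, 23.0 and 24.3 in CS mice 1 to 4 and 32.7, 29.6, 37.4 and 38.3 in RA mice 1 to 4, 32.8% lower and without overlap. Hspa8 was 5.51, 6.06, 6.32 and 5.96 in CS against 7.92, 8.49, 11.9 and 11.8 in RA, and Hsp90ab1 7.44, 7.12, 7.49 and 7.54 against 12.2, 9.94, 13.3 and 13.3. The limma fit called none of the 10 genes in AT2 cells, and none of the 9032 genes tested there (lowest adjusted p = 0.236; at an unadjusted p under 0.05, 289 were lower and 382 higher). Among the fitted types, differences of the sum were smallest in 4 types. It was 13.5% lower in neutrophils, 14.6% in the cells labelled Mast, 16.0% in B cells and 17.3% in T cells, with overlap in each. Of the 10 genes, only 4 passed the filter in neutrophils and 7 in the cells labelled Mast. Neutrophils had median depths of 2098 transcripts in CS and 2446 in RA. Whether the differences of 2 types differed from each other was not tested, since the genes were picked on them.

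Within a mouse, the difference showed in the median cell as well as in the upper tail of cells. In ciliated cells, the median cell held 49.9 to 67.0 of these transcripts per 10,000 over the CS mice and 94.2 to 159 over the RA mice. The 90th percentile of cells was 73.6 to 113 in CS mice, and the 10th percentile was 60.6 to 110.4 in RA mice. In EC capillary A the median cell held 10.9 to 15 in CS and 29.6 to 44.2 in RA, and the 90th percentile 28.4 to 34.7 in CS and 51.4 to 74.4 in RA. Ciliated cells numbered 324 to 661 a mouse in CS and 241 to 537 in RA, with median depths of 16551 and 15010.2 transcripts.

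**Figure D4:**
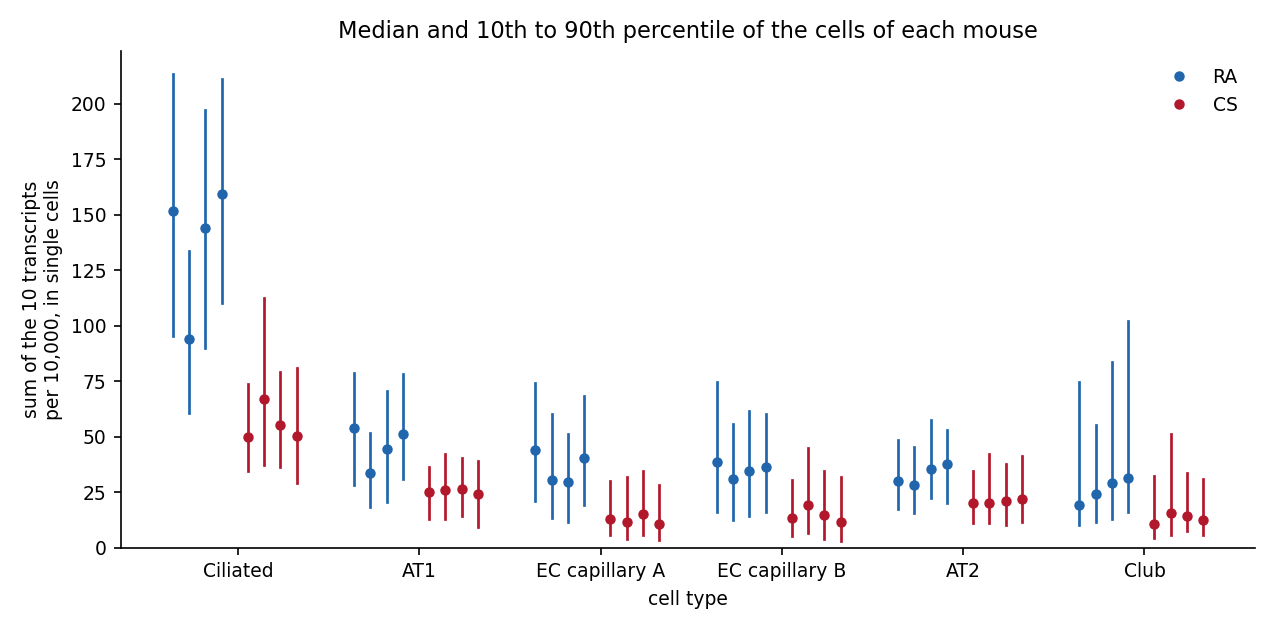
Sum of the 10 transcripts per 10,000 in single cells (vertical axis); each dot is the median cell of a mouse and each line runs from the 10th to the 90th percentile of its cells (blue RA, red CS). In 6 cell types both the medians and the upper ends lie lower in the CS mice.

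Cells of a mouse that held more of 1 of the 3 abundant chaperones also held more of the others. Over ciliated cells, Pearson's r between Hsp90aa1 and Hsp90ab1 (log2(value + 1)) ran from 0.59 to 0.72 in RA mice and from 0.48 to 0.72 in CS mice. Between Hspa8 and Hsp90ab1 it ran from 0.37 to 0.73 in RA and from 0.39 to 0.59 in CS. These cells share a library, and the sum itself had an r with the cell's depth of 0.074 to 0.13 in RA and -0.0092 to 0.35 in CS. In EC capillary B, where fewer transcripts were counted per cell, the r of Hspa8 with Hsp90ab1 was 0.26 to 0.38 in RA and 0.28 to 0.34 in CS.

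Club cells held transcripts of ciliated cell markers, and ciliated cells are the richest in these chaperones. Where those transcripts come from was not tested. The 3 ciliated markers Foxj1, Dynlrb2 and Tmem212 summed to 6.95 to 8.39 per 10,000 in club cells of CS mice and 5.24 to 7.34 in RA mice, against 40.8 in RA ciliated cells. In all club cells the sum of the 10 chaperones was 18.2 ± 3.34 in CS and 37.5 ± 7.40 in RA (n = 4 each). In the club cells with none of the 3 markers it was 6.74, 10.2, 10.6 and 10.3 in CS mice 1 to 4 and 19.2, 20.2, 23.1 and 21.8 in RA mice 1 to 4. These are the same genes and mice as those used to pick the list, and the part of ciliated transcripts in the club cell difference was not tested. Over EC capillary B the 3 markers summed to at most 0.237 in any mouse.

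The other proteins of the pathway were tested in the fit over all genes (limma, Benjamini-Hochberg adjusted p under 0.05 in a type). They were 17 further HSP90 partners, 21 other HSP70 proteins, J-domain partners and exchange factors, and 3 regulators. Of 777 combinations of these 41 genes with a type, 18 were called lower in CS and 0 higher at this threshold. The background shares were 0.518% called lower and 0.712% called higher over all combinations. By sign alone, 542 of the 777 were lower in CS, against 45.8% over all genes. At an unadjusted p under 0.05, 2, 3 and 1 combinations of the 3 lists were higher and 64, 54 and 4 lower. Over all combinations, 6.30% were lower and 8.92% higher at that unadjusted p. With sequencing lane as a block, 9 of the 777 were called lower instead of 18. Of these 9, 8 were among the 18 and the other was Hsph1 in ciliated cells. In a type with all 8 mice the block leaves each log2 difference as it is. It changes only the error and the degrees of freedom. The 18 belonged to 9 genes: Nudc, Dnaja1, Ppid, Bag1, Hspa4l, Cdc37, Ptges3, Hspa2 and Dnajb1. The lists here and in the next paragraphs were chosen with earlier results of these data known. Their counts beside a background share are thus not independent support.

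Among HSP90 partners, 8 of 329 combinations were called lower and 253 were lower by sign, and the median log2 difference was -0.071. Nudc, a co-chaperone of HSP90 for dynein regulators, fell in ciliated cells, AT1 cells, EC capillary B and adventitial fibroblasts. In ciliated cells it was 4.84, 4.32, 5.14 and 4.56 per 10,000 in CS mice 1 to 4 and 10.1, 6.86, 7.64 and 8.43 in RA mice 1 to 4 (-0.69, SE 0.11, adjusted p = 0.00892, limma). Only the ciliated call for Nudc held with the lane block (adjusted p = 0.0337); in the other 3 types it was 0.0536, 0.0730 and 0.118 in that order. Ptges3, the p23 gene, fell in EC capillary A, at 1.11, 1.21, 1.16 and 1.07 in CS and 1.95, 1.56, 1.67 and 1.56 in RA (limma adjusted p = 0.0360, with the block 0.0590). Cdc37, which brings kinases to HSP90, fell in EC capillary B (0.930 ± 0.0680 against 1.26 ± 0.0954, n = 4 each; limma adjusted p = 0.0296, with the block 0.0730). Ppid, the cyclophilin 40 gene, fell in ciliated cells and EC capillary B (limma adjusted p = 0.0378 and 0.0490), and both calls were lost with the block (0.0653 and 0.0730).

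Among HSP70 proteins and their partners, 10 of 398 combinations were called lower and 251 were lower by sign, with a median log2 difference of -0.036. Hspa2, an HSP70 best known from the testis, fell in ciliated cells from 4.89, 4.11, 5.22 and 5.37 per 10,000 in RA mice 1 to 4 to 2.67, 2.71, 2.78 and 2.40 in CS mice 1 to 4 (-0.69, SE 0.079, limma adjusted p = 0.00295, with the block 0.0218). Hspa4l, a nucleotide exchange factor, fell in ciliated cells, at 6.96, 7.60, 6.78 and 6.48 in CS and 10.4, 10.3, 11.4 and 11.6 in RA (limma adjusted p = 0.00507), and in AT1 cells (limma adjusted p = 0.0212). The J-domain gene Dnaja1, a partner of HSC70, fell in AT1 cells, ciliated cells and both capillary types, and in EC capillary A was 1.54, 1.16, 1.43 and 1.15 in CS and 2.15, 2.38, 2.16 and 2.59 in RA (-0.52, SE 0.078, limma adjusted p = 0.0136). In EC capillary B the Dnaja1 call was lost with the lane block (limma adjusted p = 0.0646), as were those of Dnajb1 (0.0660) and of Bag1, an exchange factor (0.0646). Bag1 also fell in AT1 cells (limma adjusted p = 0.0471). The calls of Hspa2, Hspa4l and Nudc in ciliated cells each held whichever single mouse was left out. Every other call of the 18 was lost without at least 1 mouse.

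Of 5 stress-inducible genes of the list, Hspa1a, Hspa1b, Hsph1, Bag3 and Dnajb1, singled out after their values were seen, the fit without lane made a call for Dnajb1 alone, lower in EC capillary B (limma adjusted p = 0.0336). Hspa1a and Hspa1b, the inducible HSP70 genes, were lower in CS in 12 and 8 of 21 types, with no type past the threshold (limma). Hsph1, the HSP110 gene, was lower in 13 of 21 types and Bag3, which pairs HSP70 with autophagy, in 6 of 19, without a call. Dnajb1, a J-domain partner, was lower in 17 of 22. Hsph1 in ciliated cells was 2.51, 7.39, 4.38 and 5.59 in CS mice 1 to 4 and 8.62, 6.6, 12.8 and 11.4 in RA mice 1 to 4 (limma adjusted p = 0.0717), and it passed with the lane block (adjusted p = 0.0385). At an unadjusted p under 0.05, 8 of the 104 combinations of these 5 genes were lower and 2 higher (limma), beside 6.30% lower and 8.92% higher over all combinations. Their medians over types were -0.069, 0.041, -0.088, 0.040 and -0.12 on the log2 scale in this order. Hsf1, the master factor of the response, was lower in 17 of 21 types with a median of -0.016, and no combination of the 3 regulators passed (at an unadjusted p under 0.05, 4 of 50 were lower and 1 higher, beside the same shares over all combinations).

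Chaperones of the endoplasmic reticulum were lower in several types. Of 84 combinations of Hsp90b1, Hspa5, Trap1 and Hspa9, 8 were called lower and 0 higher, beside 0.518% called lower over all combinations. By sign alone, 71 of the 84 were lower, against 45.8% over all genes. At an unadjusted p under 0.05, 32 were lower and 0 higher (limma), beside 6.30% lower over all combinations. Hspa5, the endoplasmic reticulum HSP70 called BiP, fell in 6 types, most in mesothelium (-1.28, SE 0.17) and adventitial fibroblasts (-1.18, SE 0.13). In ciliated cells Hspa5 was 3.28, 3.60, 3.68 and 3.35 in CS mice 1 to 4 and 6.87, 10.1, 6.95 and 7.10 in RA mice 1 to 4 (limma adjusted p = 0.00295). RA mouse 2, the lowest RA mouse for the cytosolic genes in ciliated cells, was the highest for Hspa5. In EC capillary B the Hspa5 call was lost with the lane block (limma adjusted p = 0.0646). Hsp90b1, the endoplasmic reticulum HSP90 called GRP94, fell in ciliated cells and adventitial fibroblasts (limma adjusted p = 0.0194 and 0.0438), and both calls were lost with the block (0.0756 and 0.138). The Hspa5 calls in ciliated cells, adventitial fibroblasts and alveolar fibroblasts held whichever mouse was left out. Its calls in arterial endothelium, EC capillary B and mesothelium, and both Hsp90b1 calls, were each lost without at least 1 mouse, and all 5 were lost without CS mouse 4. The mitochondrial genes Trap1 and Hspa9 had no call.

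Among genes of HSP90 clients the calls were higher in CS. Of 251 combinations of 17 well known clients, 10 were called higher in CS and 0 lower, beside 0.712% called higher over all combinations. By sign alone, 91 of the 251 were lower, against 45.8% over all genes. At an unadjusted p under 0.05, 41 were higher and 10 lower (limma), beside 8.92% and 6.30% over all combinations. Of the 10, 6 were Nr3c2, the mineralocorticoid receptor, a steroid receptor that HSP90 and FKBP52 hold. It was 1.82, 2.27, 1.95 and 1.96 per 10,000 in EC capillary A of CS mice 1 to 4 and 0.884, 1.2, 1.54 and 1.34 in RA mice 1 to 4 (limma adjusted p = 0.0412, with the block 0.0309). With the block it also held in mesothelium (0.0283) and not in the other 4 types (adjusted p from 0.0646 to 0.0832). Each of the 6 Nr3c2 calls was lost without at least 1 mouse, 5 of them without CS mouse 3 or CS mouse 4 and the call in adventitial fibroblasts without RA mouse 4. Ahr, the receptor of polycyclic hydrocarbons that HSP90 holds in the cytosol, rose in ciliated cells (0.279 ± 0.0442 against 0.164 ± 0.0257, n = 4 each; limma adjusted p = 0.0237) and in EC capillary B (2.11 ± 0.171 against 1.18 ± 0.319, n = 4 each; limma adjusted p = 0.0274). Both Ahr calls were lost with the block (0.0549 and 0.0646). The call of Esr1 in arterial endothelium entered the fit through the CS group alone, with the gene in 13.0% of CS cells and 2.31% of RA cells, and nothing is read from it. Ikbkb rose in ciliated cells (limma adjusted p = 0.0495, with the block 0.113).

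Several other measures moved with the exposure in the same cells. The 14 immediate-early genes that enzyme digestion raises, such as Fos, Jun, Egr1 and Atf3, summed lower in CS in 20 of 22 types, with 3 types without overlap and 14 of 306 combinations called lower, of which 3 held with the lane block, beside 0.518% called lower over all combinations. At an unadjusted p under 0.05, 88 of the 306 were lower and 4 higher (limma), beside 6.30% and 8.92% over all combinations. In EC capillary B the sum was 82.2 ± 13.6 per 10,000 in CS and 134 ± 27.1 in RA, in ciliated cells 77.6 ± 23.6 and 119.8 ± 18.5, and in EC capillary A 54.3 ± 8.69 and 74.2 ± 26.0 (n = 4 each). The groups were apart in EC capillary B and overlapped in ciliated cells and EC capillary A. The part of these genes in the chaperone differences was not tested. In AT2 cells the groups also overlapped, at 55.2 ± 8.34 in CS and 54.0 ± 1.41 in RA. So they did in neutrophils, at 159 ± 23.6 and 143 ± 24.4 (n = 4 each). Over types, the r between the log2 ratios of the 2 sums was 0.49 (22 types that share 8 mice). Over the cells of a mouse, the r of the 2 sums was 0.43 to 0.49 in EC capillary A of RA mice and 0.48 to 0.51 in that of CS mice. In ciliated cells it was -0.032 to 0.30 in RA mice and 0.085 to 0.59 in CS mice.

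**Figure D5:**
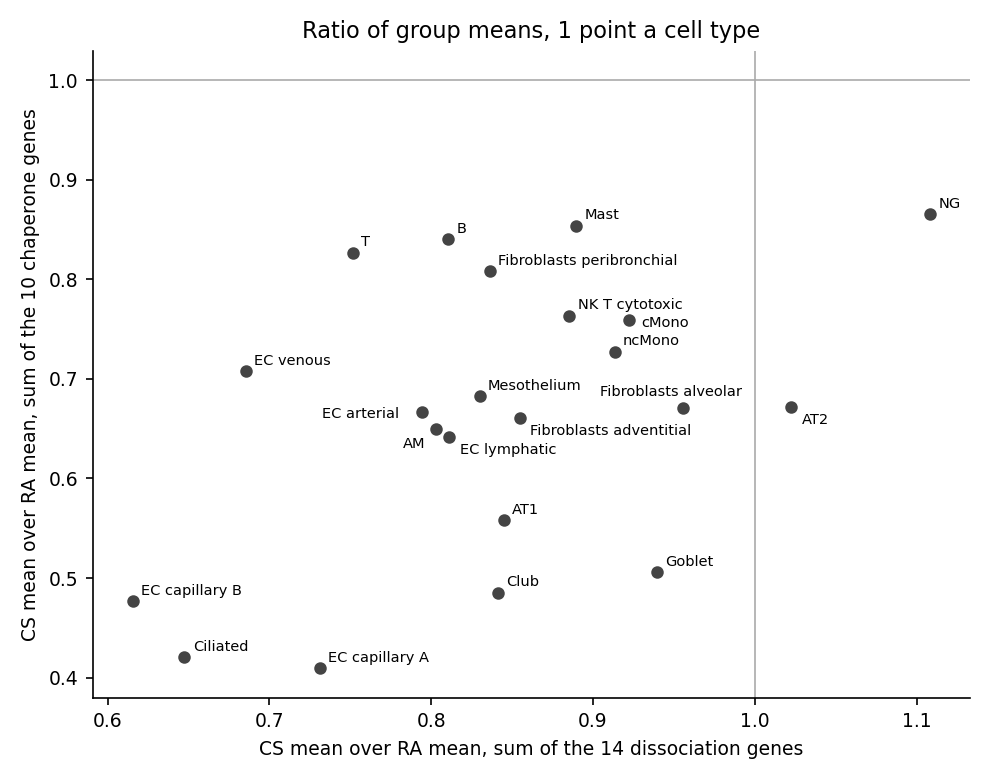
Ratio of the CS mean to the RA mean for the sum of 14 dissociation genes (horizontal axis) and the sum of the 10 chaperone genes (vertical axis); each point is a cell type and grey lines mark a ratio of 1. All 22 points lie below 1 for the chaperones, and AT2 cells and neutrophils lie above 1 for the dissociation genes.

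Clock genes and Cirbp, a temperature-sensitive gene, differed as well. The 8 clock output genes found in the matrix, such as Dbp, Tef and Nr1d1, summed higher in CS in 22 of 22 types and without overlap in 9. The sum was 6.80 ± 1.62 in CS and 3.39 ± 0.871 in RA in EC capillary B, and 5.52 ± 0.330 and 4.39 ± 0.904 in ciliated cells (n = 4 each). Of 118 combinations 16 were called higher, of which 6 held with the lane block, and of 47 combinations of the 3 genes of the opposite phase 2 were called lower, beside 0.712% called higher and 0.518% called lower over all combinations. At an unadjusted p under 0.05, 68 of the 118 were higher and 0 lower, and 16 of the 47 were lower and 2 higher (limma). Over all combinations, 8.92% were higher and 6.30% lower at that unadjusted p. One call of each of these lists, Dbp in EC capillary B and Arntl in AT1 cells, passed the filter only through the group where it was high. Cirbp and Rbm3, which cells raise when cooled, summed higher in CS in 19 of 22 types and without overlap in 8. Of their 41 combinations 3 were called higher, all of them Cirbp, in AT1, ciliated and club cells, beside 0.712% over all combinations. All 3 held with the lane block. At an unadjusted p under 0.05, 15 of the 41 were higher and 0 lower (limma), beside 8.92% and 6.30% over all combinations. Rbm3 had no call. Over all 22 types, the median depth of CS cells was from 0.818 to 1.29 times that of RA cells, and it was higher in CS in 10 of the 22. The log2 ratio of the chaperone sum had an r over types of -0.39 with that of the clock output sum. With the log2 ratio of depth the r was -0.31. The time of day of collection is not given in the sources used here, and the part of the clock, of temperature and of depth in the chaperone differences was not tested.

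The types with too few cells for the fit leaned the same way. In all 10, over mice with at least 5 cells, the mean sum of the 10 genes was lower in CS. Pericytes, which wrap the capillaries, had 11.3 to 18.8 per 10,000 in 3 CS mice and 37.9 to 52.2 in 3 RA mice, from 42 and 223 cells. Basal cells, the stem cells of the airway, had 22.4 to 38.1 in 4 CS mice and 52.5 to 59.3 in 4 RA mice. Neuroendocrine cells (PNEC) had means of 48.9 in CS and 49.5 in RA over 3 mice each.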

How the data were processed

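The 10x Genomics 3′ libraries (v3 chemistry) were aligned by the authors with STAR 2.7.3a to GRCm38.p6 with the reporter transgenes added, and UMIs of spliced and unspliced RNA were kept. The deposited matrix holds estimated counts: UMI counts from which the authors removed free RNA with SoupX, so that most entries are not whole. The deposited percent of mitochondrial transcripts per cell was used only as a quality value. Cell types and multiplets are those of the deposited annotation.

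Each cell was scaled to a total of 10,000, and the values of each mouse were averaged by type (at least 20 cells; the smallest group used had 23 cells, so levels of rare genes are imprecise). Types with at least 3 such mice in each group were fitted with limma 3.58.1 (R 4.3.3, trend) on log2(mean + 1) over genes detected in 10% or more of CS or RA cells, and p-values were adjusted within a type (Benjamini-Hochberg, 0.05); an SE printed beside a difference comes from this fit. The fit was run on simulated counts with the means and depths of EC capillary B and noise drawn independently for each gene and mouse. That simulation held no shift shared by many genes of a mouse, so it says nothing about such shifts. A mouse is the replicate.

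The labels carry a code for each library that was read as its sequencing lane, which no source used here spells out, and each of the 4 codes holds 1 CS and 1 RA mouse. Residuals of lane partners had a mean correlation between -0.11 and 0.13 by type, so a fit with lane as a block was an alternative. Other alternatives changed the pseudocount, gene filter, cell minimum, averaging and centring, or left out a mouse.

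The 10 genes and all gene lists were chosen with earlier results of these data known. Genes named are the 10, for each its types of highest and lowest RA level and of largest and smallest difference, and list genes that passed the threshold. A limit of 5 cells a mouse was used to describe the types too small to fit.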

Additional observations from a re-analysis of the deposited data

Results flagged for a closer look

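Among the 78 groups of 4 mice whose levels were checked, 8 held a mouse far from the other 3 by Dixon's test at the 95% level; chance alone gives about 1 in 20 groups. RA mouse 2 was low in ciliated cells for both HSC70 adaptors, at 2.64 for Stip1 where the others had 4.49 to 4.57, and at 2.36 for St13 where the others had 3.18 to 3.27. CS mouse 2 was high for Hsp90aa1, at 26.2 in ciliated cells against 19.6 to 20.1 in the others, and at 4.36 in EC capillary B against 2.41 to 2.54. CS mouse 3 had 2.43 of Hsp90ab1 in neutrophils, where the other CS mice had 1.72 to 1.79. In EC capillary B, RA mouse 3 was high for Stip1 (0.742 against 0.581 to 0.595) and RA mouse 4 for Fkbp4 (0.866 against 0.750 to 0.763), while RA mouse 1 was low for Cacybp (0.377 against 0.565 to 0.600). All values are transcripts per 10,000.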

How the results depend on the processing

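Over all genes, 892 combinations of gene and type were called lower in CS and 1226 called higher. With lane as a block these were 321 and 342, and without a gene filter 63 and 55. Leaving out 1 mouse at a time gave 201 to 933 lower and 245 to 1237 higher, with the fewest lower without CS mouse 1 (201) and the fewest higher without CS mouse 4 (245). For the 41 other chaperone genes, the 18 lower became 9 with the block, 2 without a gene filter and 5 to 18 with a mouse left out (5 without CS mouse 1 or CS mouse 4, 7 without CS mouse 3, 10 without CS mouse 2, 9 without RA mouse 2 and 11 without RA mouse 4); none were higher but 0 to 1 with a mouse left out (1 without RA mouse 3). Other alternatives kept these counts within 1.5 times. Of the 10 genes, the median log2 difference moved by more than the spread between mice with a pseudocount of 0.1, to -0.78 for Fkbp4, -0.49 for Cacybp, -0.48 for Ahsa1, -0.41 for Ahsa2, -0.38 for Stip1 and -0.29 for Chordc1. It was -0.19 for Ahsa2 in genes found in at least 25% of cells, which left 6 types, and -0.27 for Fkbp4 with log values averaged over cells. No median changed sign under any alternative run. By sign, 200 of the 211 combinations of the 10 genes were lower in CS with the block. Without CS mouse 1, 175 of 191 were lower by sign, the fewest of the runs that left out a mouse. The lane block ended 17 of 32 calls of chaperone genes and Nr3c2. Each lane held 1 CS and 1 RA mouse, so in a type with all 8 mice the block could not change a difference. It changed only the error and the degrees of freedom. Leaving out CS mouse 4 ended 23 of the 32, CS mouse 1 20 of the 30 that could be fitted, CS mouse 3 20, CS mouse 2 14 and the RA mice 6 to 15. The cause of these changes was not tested. Some alternatives also held fewer genes, types or mice in a fit, and the part of that was not tested either. Depth limits rare genes: Ahsa2 and Chordc1 had RA means of at most 1.11 transcripts per 10,000 in any type.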
